A study of Homo sapiens with 4 samples.

Results

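The Wnt ligands, receptors and inhibitors described here are 10 genes, WNT5A, WNT5B, FZD2, FZD7, LRP6, DKK1, AXIN2, CTNNB1, TCF7L2 and SFRP1. They were found by gene symbol, after the Ensembl identifiers of the count table were matched to an annotation, and all 10 were present among its 60725 genes. RNA-seq was performed in RPE1 cells, a human retinal pigment epithelial line immortalised with telomerase, that express the SunTag system. The control cells received 10 nM of Silencer Select Negative Control No. 2 siRNA and the TOP2B knockdown (TOP2B KD) cells 10 nM of the Dharmacon ON-TARGETplus SMARTpool against TOP2B, the gene of DNA topoisomerase II beta. Both groups were transfected again after 48 h and harvested 72 h later, on day 5. Each group had 2 libraries, called replicates 1 and 2, and the design asks which transcripts change when TOP2B is depleted. Both groups are cultures of the same immortalised line, and the TOP2B siRNA is a pool of sequences.

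Wnt proteins are secreted, lipid-modified ligands that bind Frizzled receptors at the cell surface. In the canonical branch they also engage LRP5 or LRP6, which halts the breakdown of beta-catenin by a complex built on AXIN and APC, and beta-catenin then acts with TCF and LEF factors on target genes such as AXIN2. WNT5A and WNT5B mostly signal through other branches that steer cell movement and polarity, DKK1 blocks LRP6, and SFRP1 binds Wnt ligands outside the cell. In the eye, Wnt signalling takes part in the formation of the retinal pigment epithelium.

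The counts summed to between 20310259 and 23887013 per library, so that a value of 1 CPM (reads scaled to library depth with the TMM method) rests on at least 20.2 reads. Intervals given below express counting error and the spread of these libraries, and nothing else. TOP2B itself had 155 and 143 CPM in control and 15.3 and 13.3 CPM in TOP2B KD, a log2(fold change) of -3.38 (SE 0.14, edgeR quasi-likelihood test, Benjamini-Hochberg p adj = 5.1e-06), which left 9.58% of the control level. Of 8 pigment epithelium markers, RPE65, TYR and TTR had 0 reads in all 4 libraries, which allows up to 3 counts in each. RLBP1 had at most 1 read, BEST1 14 to 20 reads and PMEL 7 to 31 reads. MITF (38.1 to 44.8 CPM) and OTX2 (11.2 to 13.4 CPM), regulators of the lineage, were expressed. The summed levels of all 8 were 51.8 and 50.3 CPM in control and 58.16 and 59.44 CPM in TOP2B KD. Of 5 epithelial markers, KRT8 (853 to 1346 CPM) and KRT18 (266 to 424 CPM) were expressed. CDH1 had 1 to 2 reads, KRT19 2 to 9 and EPCAM 0. The 5 summed to 1456 and 1770 CPM in control and 1119 and 1401 CPM in TOP2B KD. Of 5 mesenchymal markers, VIM (937 to 1018 CPM), THY1 (420 to 503 CPM), PDGFRB (113 to 174 CPM) and COL1A1 (4.64 to 7.4 CPM) were expressed. COL1A2 had at most 2 reads. These 5 summed to 1651 and 1641 CPM in control and 1512 and 1552 CPM in TOP2B KD. The sums of blood and of neuronal markers differed between the groups as well, each carried mostly by 1 gene. The 5 blood markers summed to 1.877 and 2.059 CPM in control and 0.5656 and 0.8421 CPM in TOP2B KD, and the 5 neuronal markers to 77.91 and 68.05 CPM against 58.25 and 51.12 CPM. Of these, CD34 (log2(fold change) -1.58, SE 0.38, edgeR p adj = 0.0262) and SYT1 (-0.45, SE 0.13, edgeR p adj = 0.0493) were called lower. Replication and cell cycle genes also moved with the groups. Of a list of 16 such genes, 10 were called higher (62.5%) and 0 lower, beside 6.66% and 4.18% of all genes tested. Their summed level was 2598 and 2463 CPM in control against 3739 and 3484 CPM in TOP2B KD. In a separate cell cycle analysis, the authors reported no altered progression after TOP2B depletion. Mitochondrial transcripts took 5.67% and 5.66% of the reads in control and 4.57% and 4.50% in TOP2B KD. The part of any of these differences in the results below was not tested. In bulk RNA, fewer cells of a type and less RNA per cell cannot be told apart.

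None of the 10 genes passed the test after TOP2B depletion. By edgeR 0 were called higher and 0 lower at an adjusted p below 0.05, 1 of them (WNT5A) had an unadjusted p below 0.05, and the Wald test of DESeq2 called WNT5A alone. Of the 15356 genes tested, 1665 were called (10.8%), of which 1023 were higher (6.66%) and 642 lower (4.18%). The median log2(fold change) of the 10 genes was -0.06, against -0.0029 over all genes tested, and 2 of the 10 values were above 0. The control and TOP2B KD libraries did not overlap in CPM for 2 of the 10 genes, WNT5A and CTNNB1, while they did not overlap for 54.3% of all genes tested. For the 9 genes other than WNT5A the log2(fold change) was between -0.19 and 0.02, with adjusted p-values from 0.444 to 0.999, and all 9 intervals held 0. For 8 of these, leaving aside the sparsely read AXIN2, the 95% intervals stayed within -0.52 and 0.45 on the log2 scale.

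The levels of the 10 genes spanned a wide range. For this the CPM was divided by the length of the canonical transcript, in CPM per kb. SFRP1 was the most abundant, with a mean of 671 CPM per kb in control, which placed it 55th of 12542 protein-coding genes. CTNNB1 (103), DKK1 (97.2) and WNT5B (94.6) followed, and the ranges of their 2 control libraries overlapped (100 to 105, 89.4 to 105 and 88.1 to 101 CPM per kb), so their order is not resolved. FZD2 came next at 30.7 CPM per kb. TCF7L2 (9.92), LRP6 (8.61) and WNT5A (8.57) formed the next group, again with overlapping ranges of 9.52 to 10.3, 7.44 to 9.78 and 7.40 to 9.74 CPM per kb. FZD7 (4.39) and AXIN2 (0.274, ranked 11928th) were lowest. All exon bases of a gene were also used as its length in place of the canonical transcript. SFRP1 (633), DKK1 (79.0) and FZD2 (30.7) then changed less than CTNNB1 (32.0) and WNT5B (49.9). The latter were lower because their annotated exons add up to more than the canonical transcript. CTNNB1 was then close to FZD2, so the groups given above depend on the length used.

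**Figure D1:**
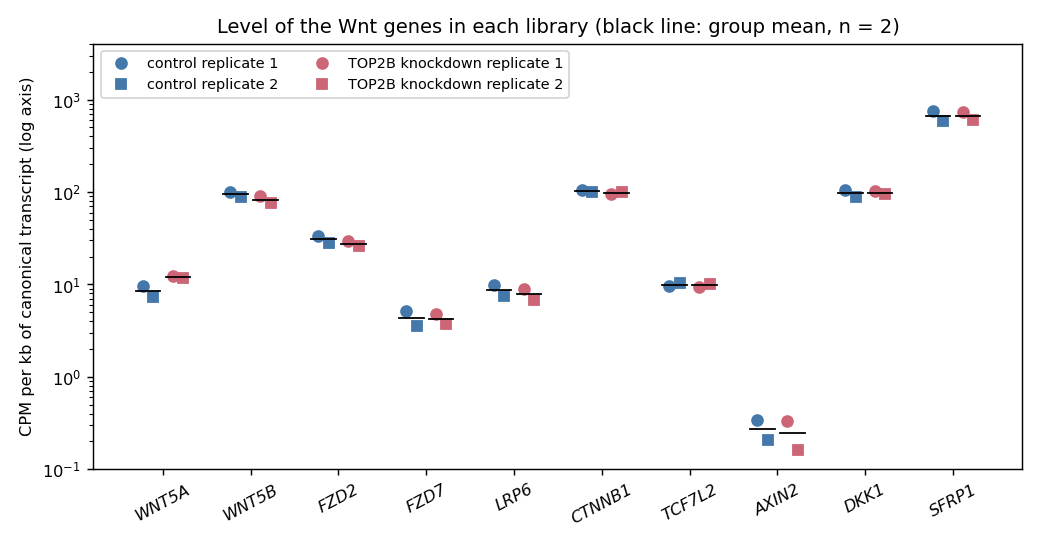
Level of each Wnt gene in the 4 libraries, in CPM per kb of canonical transcript on a log axis, with a black line at each group mean (n = 2). SFRP1 lies near 671 CPM per kb and AXIN2 near 0.274, and WNT5A is the gene in which both TOP2B KD libraries lie above both control libraries.

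Among the ligands, WNT5A (ENSG00000114251, chromosome 3 from 55465715 to 55490539, minus strand) had 56.9 and 43.2 CPM in control and 72.8 and 69.0 CPM in TOP2B KD. Both TOP2B KD libraries lay above both control libraries, and the control libraries lay further apart from each other than the TOP2B KD libraries did. The means were 50.0 ± 9.68 and 70.9 ± 2.73 CPM (SD, n = 2). This gave a log2(fold change) of 0.50 (SE 0.15, 95% interval 0.18 to 0.83), or 1.42-fold (1.13 to 1.77), and it did not pass the edgeR test over all genes (p adj = 0.0549). The call depended on the setting. DESeq2 gave 0.49 with an adjusted p of 0.0383, edgeR without the filter on low counts gave 0.50 with an adjusted p of 0.0108, and over the alternatives that used all 4 libraries the adjusted p ran from 4.53e-05 to 0.0711. Leaving out control replicate 1 gave 0.71 (edgeR, p adj = 0.00668), and leaving out control replicate 2 gave 0.32 (edgeR, p adj = 0.397). The difference thus depended on which control library was kept.

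**Figure D2:**
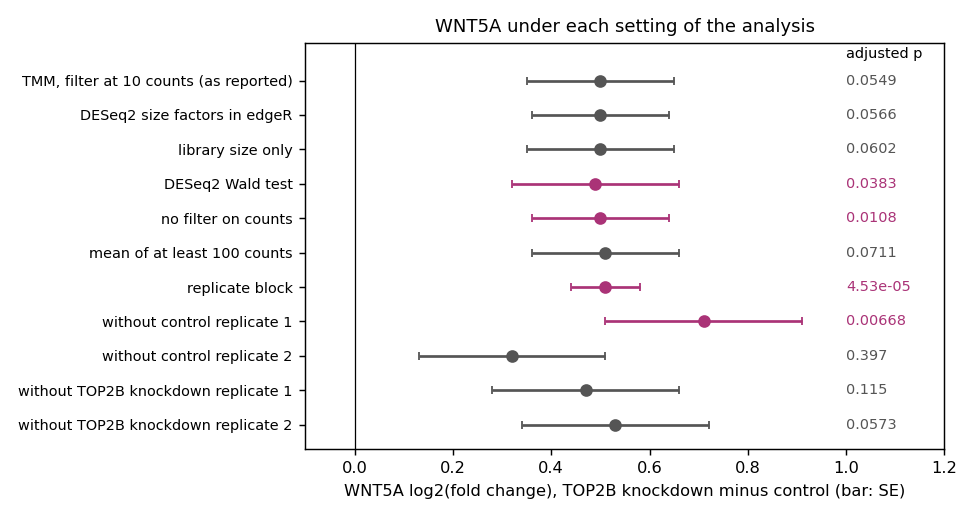
WNT5A log2(fold change) of TOP2B KD minus control under each setting of the analysis, with bars of 1 SE, the adjusted p at the right and settings with an adjusted p below 0.05 in magenta. The values lie between 0.32 and 0.71, all above 0, and the adjusted p falls on both sides of 0.05.

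WNT5B (ENSG00000111186, chromosome 12 from 1529891 to 1647212, plus strand), the close relative of WNT5A, had 226 and 197 CPM in control and 202 and 169 CPM in TOP2B KD. The groups overlapped and replicate 1 was the higher one in each. The log2(fold change) was -0.19 (SE 0.14, 95% interval -0.50 to 0.13, edgeR p adj = 0.444).

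WNT5B supplied most of the ligand transcripts of this line. Of 19 WNT genes, 5 had enough reads to be tested, and the highest count of the other 14 in any library was 9. WNT5B made up 85.8% and 87.2% of the summed CPM per kb of all WNT genes in control and 81.5% and 79.9% in TOP2B KD. WNT5A made up 8.27% and 7.32% in control and 11.2% and 12.5% in TOP2B KD. The ratio of WNT5B to WNT5A per kb was 10.4 and 11.9 in control and 7.25 and 6.41 in TOP2B KD. The shares of both genes and their ratio did not overlap between the groups, as was so for the CPM of 54.3% of all genes, and with 2 against 2 libraries an exact permutation test cannot go below p = 0.333. With all exon bases as the length, chosen after seeing the data, the ratio was 6.71 and 7.70 in control and 4.68 and 4.14 in TOP2B KD, and WNT5B made up 80.8% and 82.7% against 75.7% and 73.7%. The summed level of the WNT genes was 118 and 101 CPM per kb in control and 111 and 94.7 in TOP2B KD, which overlapped.

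The other tested ligands were WNT3, WNT10B and WNT2B. WNT3, a canonical ligand, had 17.8 and 14.5 CPM in control and 24.5 and 21.1 CPM in TOP2B KD, with a log2(fold change) of 0.50 that was not called (SE 0.15, edgeR p adj = 0.071). WNT10B, also a canonical ligand, was the 1 ligand called, and it was rare. It had 57 and 42 reads in control and 16 and 20 in TOP2B KD, with a log2(fold change) of -1.27 (SE 0.33, edgeR p adj = 0.0363). This call was lost with DESeq2 (-1.29, p adj = 0.108, with a range of 0.00208 to 0.108 over the alternatives that used all 4 libraries). It was also lost without control replicate 1 (-1.08, edgeR p adj = 0.136) and without TOP2B KD replicate 1 (-1.08, edgeR p adj = 0.142).

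PORCN, the enzyme of the endoplasmic reticulum that attaches the lipid to Wnt ligands before secretion, rose in TOP2B KD. It had 33.7 and 27.7 CPM in control and 57.4 and 53.6 CPM in TOP2B KD, with no overlap, and the log2(fold change) was 0.85 (SE 0.13, edgeR p adj = 0.00437, 0.72 to 1.00 without each library in turn). WLS, the carrier that brings lipid-modified Wnt to the surface, had 192 and 139 CPM in control and 184 and 155 CPM in TOP2B KD, which overlapped (0.03, SE 0.17, edgeR p adj = 0.93).

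The Frizzled receptors showed no called change. FZD2 (ENSG00000180340, chromosome 17 from 44557484 to 44561262, plus strand) had 125 and 107 CPM in control and 110 and 98.3 CPM in TOP2B KD. The 2 groups overlapped, and the log2(fold change) was -0.15 (SE 0.13, 95% interval -0.45 to 0.14, edgeR p adj = 0.502). FZD7 (ENSG00000155760, chromosome 2 from 202033855 to 202038441, plus strand) had 23.9 and 16.3 CPM in control and 22.2 and 17.0 CPM in TOP2B KD. Its TOP2B KD values lay inside the control range, and the log2(fold change) was -0.04 (SE 0.20, 95% interval -0.48 to 0.41, edgeR p adj = 0.93). FZD2 and FZD7 are closely related receptors, and the ratio of FZD2 to FZD7 per kb was 6.37 and 7.92 in control and 6.03 and 7.02 in TOP2B KD.

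Of the 10 Frizzled genes 9 were tested and 0 were called by edgeR, with 1 at an unadjusted p below 0.05, FZD1 (log2(fold change) 0.50, SE 0.17, p adj = 0.0949). FZD2 and FZD6 dominated the family per kb. FZD2 made up 39.7% and 43.6% of the summed CPM per kb in control and 38.0% and 41.0% in TOP2B KD, FZD6 made up 34.1% to 37.7% over the 4 libraries, and FZD7 made up 5.50% to 6.30%. FZD10 had 0 reads in all 4 libraries.

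LRP6 (ENSG00000070018, chromosome 12 from 12116025 to 12267044, minus strand), the co-receptor that DKK1 binds, had 100 and 76.2 CPM in control and 91.1 and 68.8 CPM in TOP2B KD. Replicate 1 was well above replicate 2 in both groups, and the groups overlapped. The log2(fold change) was -0.14 (SE 0.17, 95% interval -0.52 to 0.24, edgeR p adj = 0.647). Its relative LRP5 had 103 and 89.6 CPM in control and 77.9 and 73.4 CPM in TOP2B KD, which did not overlap, but the change was not called (-0.35, SE 0.12, edgeR p adj = 0.103). LRP6 held 32.9% and 30.1% of the 2 co-receptors per kb in control and 37.1% and 32.1% in TOP2B KD. Among receptors of the non-canonical branch, ROR1 had a log2(fold change) of 0.05 (SE 0.14, edgeR p adj = 0.856) and RYK of 0.35 (SE 0.12, edgeR p adj = 0.0847).

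**Figure D3:**
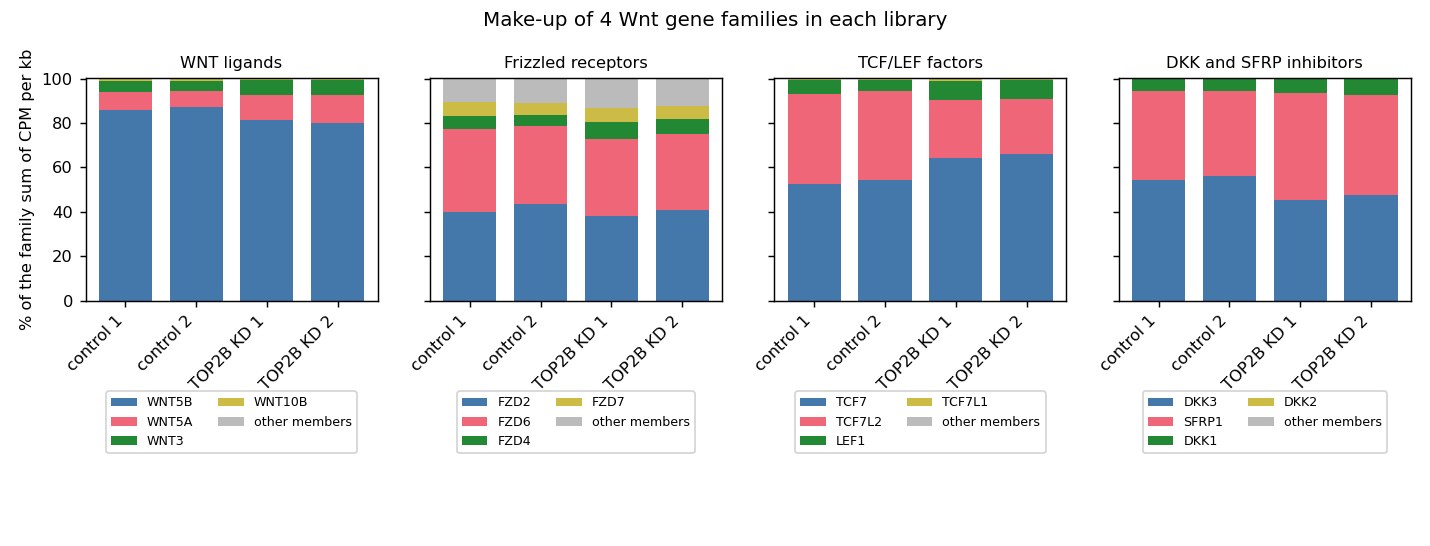
Share of each gene in the summed CPM per kb of its family, in percent, for the WNT ligands, the Frizzled receptors, the TCF/LEF factors and the DKK and SFRP inhibitors, with 1 bar per library. WNT5B fills 79.9% to 87.2% of the ligand bars, FZD2 with FZD6 most of the receptor bars, and the part of TCF7L2 is 40.5% and 40.1% in control and 26.2% and 24.6% in TOP2B KD.

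Both secreted inhibitors of the 10 genes were abundant, and neither was called. SFRP1 (ENSG00000104332, chromosome 8 from 41261962 to 41309473, minus strand) had 3388 and 2604 CPM in control and 3315 and 2675 CPM in TOP2B KD. Replicate 1 was higher in each group by more than the groups differed. The log2(fold change) was 0.00 (SE 0.20, 95% interval -0.45 to 0.45, edgeR p adj = 0.999). SFRP1 alone took 0.34% and 0.26% of the reads in control and 0.333% and 0.266% in TOP2B KD, and by raw count it ranked between 11th and 16th of all genes.

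DKK1 (ENSG00000107984, chromosome 10 from 52314281 to 52318042, plus strand) had 189 and 161 CPM in control and 183 and 172 CPM in TOP2B KD. The TOP2B KD values lay inside the control range, and the log2(fold change) was 0.02 (SE 0.13, 95% interval -0.28 to 0.31, edgeR p adj = 0.953). Of its exon bases, 10.2% overlap PRKG1-AS1. How reads there were counted is unknown, because the use of the strand in counting is not given. The ratio of SFRP1 to DKK1 per kb was 7.23 and 6.52 in control and 7.31 and 6.31 in TOP2B KD, which overlapped.

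DKK1 is a known target of TCF and LEF factors. A form of their motif, CTTTGA, was searched, and forms with another base at its end were not. On the other strand CTTTGA reads TCAAAG. Promoters from 250 bases before to 50 after the start, from RefSeq (GRCh38.p14), matched 5 of the 10 genes (CTNNB1, DKK1, TCF7L2, WNT5A and WNT5B), with 9 promoters in all. Only that of DKK1 holds CTTTGA on either strand, with copies 149 and 95 bases before the start. It is shown for this reason with these copies in capitals (chr10:52314031-52314330, plus strand).
DKK1 promoter: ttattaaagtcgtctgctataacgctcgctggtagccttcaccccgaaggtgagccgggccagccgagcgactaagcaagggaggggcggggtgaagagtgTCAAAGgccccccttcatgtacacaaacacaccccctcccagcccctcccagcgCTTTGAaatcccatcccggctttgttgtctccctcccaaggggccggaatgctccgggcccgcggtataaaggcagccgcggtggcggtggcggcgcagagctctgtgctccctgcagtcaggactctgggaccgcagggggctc
CTTTGA stands on either strand in 12.9% of 35116 RefSeq promoters. The longer form CTTTGAT is in 2.62% of them and in none of the 9. A match of letters is a description and does not show binding.

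Of 16 secreted or surface inhibitors on the wider list, 6 had enough reads to be tested and 0 were called by edgeR, with 2 at an unadjusted p below 0.05. These were the DKK1 relatives DKK3 (2587 and 2187 CPM in control, 1771 and 1585 CPM in TOP2B KD, log2(fold change) -0.51, SE 0.17, p adj = 0.0934) and DKK2 (1.63 and 1.84 CPM in control, 3.02 and 2.97 CPM in TOP2B KD, 0.79, SE 0.26, p adj = 0.0807). Neither overlapped between the groups. Of the exon bases of DKK3, 47.5% overlap USP47. The ratio of DKK3 to DKK1 per kb was 9.76 and 9.69 in control and 6.90 and 6.60 in TOP2B KD, without overlap. Of the summed CPM per kb of the DKK and SFRP genes, SFRP1 held 40.2% and 37.9% in control and 48.0% and 45.3% in TOP2B KD, and DKK1 held 5.55% and 5.81% in control and 6.57% and 7.18% in TOP2B KD. These shares depend on the length used for DKK3. With all exon bases, SFRP1 held 70.3% and 68.2% in control and 75.2% and 72.9% in TOP2B KD and exceeded DKK3 (15.9% to 22.7%), the ratio of DKK3 to DKK1 was 2.54 and 2.52 against 1.79 and 1.72, and the shares of DKK1 overlapped between the groups (8.38% and 9.01% against 8.86% and 9.96%).

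Beta-catenin is encoded by CTNNB1 (ENSG00000168036, chromosome 3 from 41194741 to 41260096, plus strand), which had 384 and 368 CPM in control and 348 and 362 CPM in TOP2B KD. Both TOP2B KD libraries lay below both control libraries, by a narrow margin. The log2(fold change) was -0.08 (SE 0.13, 95% interval -0.38 to 0.21, edgeR p adj = 0.75), and without each library in turn it was between -0.13 and -0.05.

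AXIN2 (ENSG00000168646, chromosome 17 from 65528563 to 65561648, minus strand), a scaffold of the destruction complex and a widely used readout of beta-catenin activity, was barely transcribed. It had 35 and 20 reads in control and 30 and 14 in TOP2B KD, or 1.46, 0.876, 1.41 and 0.693 CPM. The groups overlapped, and the log2(fold change) was -0.15 (SE 0.43, 95% interval -1.10 to 0.81, edgeR p adj = 0.87). Changes inside these bounds were not excluded. Of the AXIN2 exon bases, 25.3% overlap an unnamed gene (ENSG00000266076).

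All 12 genes of the destruction complex were tested, and BTRC was the 1 called. BTRC, an F-box protein that marks phosphorylated beta-catenin for degradation, fell. It had 61.2 and 65.5 CPM in control and 35.9 and 35.4 CPM in TOP2B KD, with a log2(fold change) of -0.83 (SE 0.12, edgeR p adj = 0.00278) that lay between -0.88 and -0.78 without each library in turn. The replicates of each group differed far less than the groups. Not called were APC (-0.35, SE 0.17, p adj = 0.224), AXIN1 (0.22, SE 0.12, p adj = 0.262) and the kinase GSK3B (-0.11, SE 0.12, p adj = 0.591), all by edgeR. FBXW11, also of this complex, had 102 and 104 CPM in control and 105 and 113 CPM in TOP2B KD. It was not called (0.08, SE 0.12, edgeR p adj = 0.715).

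TCF7L2 (ENSG00000148737, chromosome 10 from 112950247 to 113167678, plus strand), a DNA-binding partner of beta-catenin, had 38.8 and 42.1 CPM in control and 38.1 and 41.6 CPM in TOP2B KD. The values of the 2 groups interleaved, and the log2(fold change) was -0.02 (SE 0.12, 95% interval -0.29 to 0.25, edgeR p adj = 0.936). Of its exon bases, 4.45% overlap another gene. TCF7L2 is also the longest of the 10 genes, with a span of 217 kb, and LRP6 (151 kb) and WNT5B (117 kb) follow. In all, 30.0% of the 10 genes were over 100 kb, against 18.4% of the genes tested.

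Unlike TCF7L2, its relatives TCF7 and LEF1 were called, and the difference between the factors was not tested. TCF7 had 40.5 and 46.1 CPM in control and 75.3 and 90.2 CPM in TOP2B KD, a log2(fold change) of 0.93 (SE 0.14, edgeR p adj = 0.003, 0.78 to 1.06 without each library in turn). LEF1 had 5.51 and 4.51 CPM in control and 11.1 and 12.8 CPM in TOP2B KD, a log2(fold change) of 1.25 (SE 0.18, edgeR p adj = 0.0032, 1.11 to 1.40 without each library in turn). Both genes rose without overlap of the groups. TCF7L1 was rare, at 0.292 and 0.438 CPM in control and 0.943 and 0.644 CPM in TOP2B KD, and was not called (edgeR p adj = 0.161). The summed level of the 4 genes was 23.5 and 25.8 CPM per kb in control and 35.6 and 41.4 in TOP2B KD. The share of TCF7L2 in this sum was 40.5% and 40.1% in control and 26.2% and 24.6% in TOP2B KD, and the ratio of TCF7 to TCF7L2 was 1.30 and 1.36 in control and 2.45 and 2.69 in TOP2B KD. TCF7L2 thus held a smaller share at the same level of its own transcript. The order of both factors in control depends on the length used. With all exon bases, the ratio was 0.698 and 0.731 in control and 1.32 and 1.45 in TOP2B KD, and TCF7L2 held 53.0% and 53.2% against 36.7% and 35.0%. These shares were not tested.

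Across the wider Wnt list of 112 genes, which includes the 10, 75 had enough reads to be tested, 7 were called higher, 2 lower and 66 were not called. The 9 called genes are 12.0% of those tested, close to the 10.8% over all genes, and the median log2(fold change) of the 75 was 0.013. Without the 10 genes, 65 were tested and 13.8% were called, with a median of 0.081. By role, the beta-catenin partners and nuclear factors held 5 of the 7 genes called higher (17 tested, 29.4% called, median 0.013). In contrast, edgeR called 0 of 9 Frizzled genes, 0 of 2 LRP co-receptors, 0 of 3 other receptors, 0 of 4 genes of the R-spondin axis, 0 of 6 inhibitors and 0 of 6 genes of Dishevelled proteins and their inhibitors. At an unadjusted p below 0.05 these groups held 1, 1, 1, 1, 2 and 2 genes. The differences between roles were not tested.

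Among the nuclear partners, PYGO1, which links beta-catenin to chromatin, rose from 15.2 and 12.2 CPM to 23.7 and 22.5 CPM (log2(fold change) 0.75, SE 0.15, edgeR p adj = 0.0136). Without control replicate 2 it was 0.60 and no longer called (edgeR p adj = 0.0565). TLE3, a co-repressor of TCF factors, rose from 14.8 and 18.4 CPM to 24.8 and 24.2 CPM (0.56, SE 0.15, edgeR p adj = 0.0394). TLE3 lost its call with DESeq2 (p adj = 0.053, with a range of 0.000221 to 0.053 over the alternatives that used all 4 libraries), without control replicate 1 (0.41, edgeR p adj = 0.224) and without either TOP2B KD library (0.55 and 0.56, edgeR p adj = 0.0805 and 0.0662). TBL1X, a part of co-repressor complexes that also binds beta-catenin, rose from 27.2 and 30.1 CPM to 37.5 and 40.3 CPM (0.44, SE 0.12, edgeR p adj = 0.0494). TBL1X was the weakest call, lost with the size factors of DESeq2 (p adj = 0.0569), with DESeq2 itself (p adj = 0.0872, range 9.74e-05 to 0.0872) and without any 1 of the 4 libraries (0.37 to 0.52). CELSR2, a cadherin of the planar polarity branch, rose from 26.9 and 18.8 CPM to 60.4 and 42.1 CPM (1.16, SE 0.20, edgeR p adj = 0.00722, 0.88 to 1.45 without each library in turn).

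**Figure D4:**
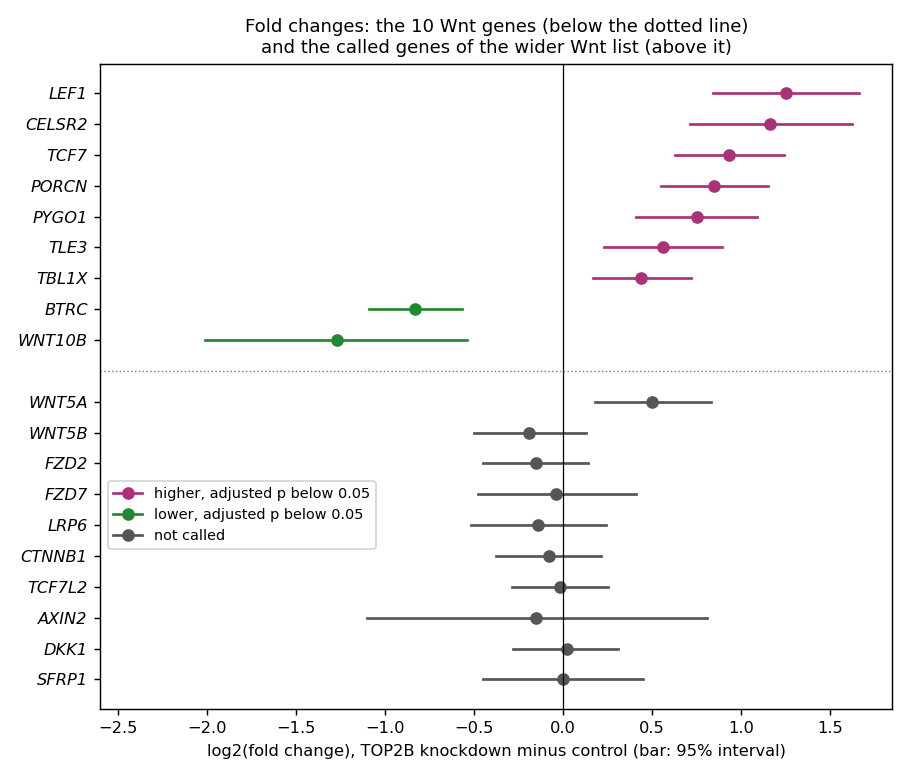
Log2(fold change) of TOP2B KD minus control with 95% intervals, for the 10 Wnt genes below the dotted line and the 9 called genes of the wider Wnt list above it. The intervals of 9 of the 10 genes cross 0, that of WNT5A runs from 0.18 to 0.83, and LEF1 (1.25) and WNT10B (-1.27) are the extremes of the called genes.

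Textbook targets of beta-catenin with TCF or LEF factors were read as a further list of 15 genes, which includes AXIN2 and DKK1. Of these, 10 were tested, 3 were called higher (LEF1, TCF7 and TNFRSF19, 30.0% of those tested) and 0 lower, beside 6.66% and 4.18% of all genes tested, with a median log2(fold change) of 0.23. LEF1 and TCF7 are the factors described above and were already counted on the wider list. TNFRSF19, a receptor of the tumour necrosis factor family, had 8.55 and 5.65 CPM in control and 14.5 and 11.3 CPM in TOP2B KD (0.86, SE 0.22, edgeR p adj = 0.0345). Its call was lost with a filter at a mean of 100 counts (p adj = 0.0567, range 3.12e-05 to 0.0567 over the alternatives that used all 4 libraries), without control replicate 2 (0.59, edgeR p adj = 0.108) and without TOP2B KD replicate 1 (0.67, edgeR p adj = 0.0727).

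The other targets had values of both signs. LGR5, a receptor for R-spondins, had 4.30 and 2.94 CPM in control and 2.26 and 1.44 CPM in TOP2B KD (log2(fold change) -0.96, SE 0.31, edgeR p adj = 0.0742). It was called without the filter on counts (-0.97, edgeR p adj = 0.00439, range 0.00127 to 0.124 over the alternatives that used all 4 libraries), without control replicate 2 (-1.21, edgeR p adj = 0.00904) and without TOP2B KD replicate 1 (-1.33, edgeR p adj = 0.0143). CCND1, the cyclin D1 gene, had 922 and 1139 CPM in control and 1316 and 1597 CPM in TOP2B KD (0.50, SE 0.18, edgeR p adj = 0.106), and DESeq2 called it (p adj = 0.0282, range 3.18e-07 to 0.117). LGR5 and CCND1 did not overlap between the groups and had opposite signs. MYC (0.16, SE 0.15, p adj = 0.531), ZNRF3 (0.29, SE 0.19, p adj = 0.365) and BAMBI (-0.10, SE 0.17, p adj = 0.759) were not called by edgeR, and the groups overlapped for each. NKD1, RNF43, SP5, NOTUM and APCDD1 had too few reads to be tested.

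The 6-base word GCAACC was searched in the 3′ UTR of the canonical transcripts, because earlier results of these data had tied it to genes that were higher in TOP2B KD. The count below is therefore a description. WNT5A holds 2 copies and FZD2 and SFRP1 1 each, so 3 of the 10 genes hold it (30.0%), against 23.4% of 12515 tested genes with a 3′ UTR, whose median log2(fold change) was 0.058 with the word and -0.038 without it. On the wider list, 22 of 75 tested genes hold it (29.3%). These are 3 of the 7 genes called higher (LEF1, PYGO1 and TLE3), 0 of the 2 called lower and 19 of the 66 not called. The sites are shown with the word in capitals (GRCh38, on the strand of the gene) to set those of WNT5A and FZD2 beside those of the called genes.
WNT5A, chr3:55469976-55469981, minus strand: ccaagaattGCAACCggaaccatt
WNT5A, chr3:55468452-55468457, minus strand: cacgacgaaGCAACCttgtttctg
FZD2, chr17:44560802-44560807, plus strand: tggctcactGCAACCtccactgca
LEF1, chr4:108048325-108048330, minus strand: ctggagccaGCAACCagcacatcc
PYGO1, chr15:55544694-55544699, minus strand: attatcattGCAACCaaaaaaatt
TLE3, chr15:70049421-70049426, minus strand: gtggaaaagGCAACCaggttggcc
TNFRSF19, chr13:23675799-23675804, plus strand: atttcaagaGCAACCaagtaaagt
In the 4 called genes the word is followed by A, and in WNT5A and FZD2 by G or T. The longer word GCAACCA was present in 9 tested genes of the wider list, none of them among the 10. Of the 9, 3 were called higher, 0 lower and 6 not called, with a median log2(fold change) of 0.18. The median was 0.196 for the 22 tested genes of the list with GCAACC and 0.002 for those without it. The share of GCAACCA over all genes tested was not determined, so the A only describes these sites. PORCN, TCF7, TBL1X and CELSR2 are called higher without the word. The part of the word in these differences was not tested.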

How the data were processed

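The data are RNA-seq libraries, 2 from control and 2 from TOP2B knockdown cells. The authors checked reads with FastQC 0.11.6, aligned them to GRCh38 with STAR 2.5.4a and took gene counts while mapping (Gencode v24), and they deposited these raw counts, whole numbers without normalization. The table repeats each column with the same values, and the 4 repeats were left out. Column names carry a stranded paired-end tag although the methods describe single-end sequencing. Whether counting used the strand is not given in the sources used here.

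A gene was tested if 2 or more libraries had 10 or more counts (15356 of 60725), with edgeR 4.0.16 (glmQLFit and glmQLFTest, TMM, group as the only term, Benjamini-Hochberg adjustment over all genes tested) in R 4.3.3. The common dispersion was 0.0117. A gene counted as called, and is said to rise or fall, at an adjusted p below 0.05. The SE is the log2(fold change) divided by the root of F, and the 95% interval uses the t distribution. Total counts of 20310259 to 23887013 set the precision. The methods describe the replicates as independent and biological, 2 for each condition, and the labels add only their number. CPM values use TMM. Symbols, positions, transcript lengths and 3′ UTRs came from GENCODE v44 (GRCh38), which named 98.9% of the tested genes.

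The genes and lists were chosen with earlier results of these data known. Genes named with a test are the 10 genes, TOP2B, called genes of the wider Wnt list and tested targets. The 2 genes nearest in pattern to a called member would also have been named, but no member was called. Further genes of the families (among them LRP5, WNT3, DKK2, DKK3, FZD1, RYK, APC and GSK3B), the ratios and the 3′ UTR word were chosen after values were seen.

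Results were recomputed with DESeq2 size factors in edgeR, library size alone, the Wald test of DESeq2 1.42.0, no filter on counts, a mean of at least 100 counts, the replicate number as a block, fits without each library (in which the lone library is assumed to vary like the other group) and, added after seeing the data, all exon bases in place of the canonical transcript as the gene length. The scripts were tested on simulated data.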

Additional observations from a re-analysis of the deposited data

How the results depend on the processing

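Of the 10 Wnt genes, 1 (WNT5A) was called higher with the Wald test of DESeq2, without the filter on counts and with the replicate number as a block, and 0 to 1 without each library. With the replicate block 3 were called lower, WNT5B (edgeR p adj = 0.00307), FZD2 (p adj = 0.0182) and LRP6 (p adj = 0.0307), and 0 without each library. On the wider list the genes called higher were 12 without the filter on counts, 29 with the replicate block and 5 to 9 without each library. Those called lower were 4 without the filter, 1 with a mean of at least 100 counts, 17 with the block and 1 to 4 without each library. Over all genes, 3440 were higher and 3346 lower with the block, 985 were lower without the filter, and 697 to 987 were higher and 467 to 534 lower without each library. The samples share only a replicate number. The difference of replicate 1 from replicate 2 correlated between control and TOP2B KD across 15356 genes (r = 0.479), which are not independent, and 2 pairs do not show that the numbers pair the samples.

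The sign of several uncalled log2(fold change) values turned without 1 library. Their ranges over these fits were -0.29 to 0.26 for FZD7, -0.35 to 0.07 for LRP6, -0.75 to 0.27 for AXIN2 and -0.18 to 0.20 for SFRP1 (positive without control replicate 1 or TOP2B KD replicate 2), -0.09 to 0.14 for DKK1 and -0.10 to 0.05 for TCF7L2 (sign turned without control replicate 2 or TOP2B KD replicate 1), -0.02 to 0.32 for MYC and -0.25 to 0.07 for BAMBI. With the block, and with only genes above a mean of 100 counts, SFRP1 was 0.00, on the other side of 0 by less than the rounding. TOP2B was called in every setting, between -3.48 and -3.30. The cause of these differences was not tested. With 2 libraries per group and 14 to 35 reads on AXIN2, depth and replicate number limit what can be seen.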

Other observations

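Most of the 10 genes shared an order of the replicates. Replicate 1 was above replicate 2 in both groups for 8 of the 10 genes (80.0%) and replicate 2 above replicate 1 in both for 1 (TCF7L2), against 38.9% and 37.1% of all genes tested. On the wider Wnt list, replicate 1 was higher in both groups for 39 of 75 genes (52.0%). For SFRP1 the libraries held 81224 and 59426 reads in control and 70341 and 54008 in TOP2B KD, and for AXIN2 35 and 20 against 30 and 14. The labels do not say what the replicate number stands for, and the part of a shared culture or day in this order was not tested.

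Among the Dishevelled genes, which carry the signal from Frizzled to the destruction complex, DVL1, DVL2 and DVL3 had log2(fold change) values of 0.42, 0.30 and 0.36, with edgeR adjusted p-values from 0.0595 to 0.233, and none was called. In the non-canonical branch, the co-receptor PTK7 had 117 and 96.0 CPM in control and 140 and 124 CPM in TOP2B KD (0.31, SE 0.14, edgeR p adj = 0.193). ROR2, a receptor for WNT5A, had at most 2 reads in a library, while ROR1 had 54.4 to 68.0 CPM.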
